A study of Mus musculus with 32 samples.

Results

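Imprinted genes are genes of which mainly 1 parental copy is read, and their levels were examined in native parathyroid gland cells and in their counterparts grown from mouse embryonic stem cells (ESC). The group consists of 38 imprinted mouse genes chosen by name, and all 38 matched a gene by transcript identifier among the 35458 genes of the tables. For each gene the expected reads of all its transcripts were summed in each of 32 libraries. Each library was made with the SMART-Seq HT kit from 10 to 20 cells picked by hand for tdTomato fluorescence, and the libraries form 8 experiments of 4 biological replicates. Native control cells came from C57BL/6-Pthtm1(P2A-tdTomato)/+ mice, labelled male at 8 weeks in control experiment 1 and female at 11 weeks in control experiment 2. ESC-derived cells came from Gcm2-/- hosts, animals that lack the factor needed to form the parathyroid gland, complemented with Pth-tdTomato mouse ESCs, which fill the vacant organ. The mouse hosts were on a BDF1B6 background and gave 4 experiments at 9 weeks, of which 1 to 3 are labelled female and 4 male. A graft experiment (male, 12 weeks) used the same kind of cells after grafting, and a rat-host experiment used Gcm2-/- Wistar rats as neonates of unknown sex. The control cells and the donor ESCs both carry the Pth reporter, all hosts lack Gcm2, and the ESC line is not named in the labels. The labels also do not say whether the replicates of an experiment came from separate animals, so p-values between libraries measure only their spread, which may be technical. A difference in the rat host could be one of species or of age, and these cannot be told apart because the only rat-host experiment is also the only neonatal one.

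At an imprinted locus, DNA methylation placed in the egg or the sperm marks a control region, and after fertilization the mark is copied at each cell division and keeps 1 parental allele silent. Mouse ESC cultures are known to lose or gain such marks, which can silence an imprinted gene or raise its output by opening the second copy. Many imprinted genes act on growth: in general, paternally expressed genes such as Igf2 promote it and maternally expressed genes such as Cdkn1c and Grb10 restrain it. The libraries were not split by allele, so each value is the summed output of both copies.

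Promoter sequences of 3 genes are shown because Peg3 was the member called in a mouse-host experiment, and Grb10 and Nap1l5 were among those called in the rat host against control. Each run is 300 bases around a transcription start of the RefSeq annotation on GRCm38.p6, read along the gene's strand, with CpG dinucleotides, the sites of imprint methylation, in capitals.
Peg3, chr7:6730370-6730669, minus strand: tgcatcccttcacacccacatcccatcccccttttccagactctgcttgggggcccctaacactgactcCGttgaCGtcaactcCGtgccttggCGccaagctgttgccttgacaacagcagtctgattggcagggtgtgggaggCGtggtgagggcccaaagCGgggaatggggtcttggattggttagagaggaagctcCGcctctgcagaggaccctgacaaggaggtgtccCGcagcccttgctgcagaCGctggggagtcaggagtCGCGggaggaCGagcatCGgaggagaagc
Nap1l5, chr6:58907077-58907376, minus strand: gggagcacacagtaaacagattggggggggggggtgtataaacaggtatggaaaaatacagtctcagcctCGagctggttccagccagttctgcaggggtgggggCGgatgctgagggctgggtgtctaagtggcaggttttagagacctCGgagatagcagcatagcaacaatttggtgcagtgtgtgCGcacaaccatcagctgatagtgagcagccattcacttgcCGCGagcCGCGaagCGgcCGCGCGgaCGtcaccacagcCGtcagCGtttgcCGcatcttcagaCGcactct
Grb10 upstream start, chr11:12037371-12037670, minus strand: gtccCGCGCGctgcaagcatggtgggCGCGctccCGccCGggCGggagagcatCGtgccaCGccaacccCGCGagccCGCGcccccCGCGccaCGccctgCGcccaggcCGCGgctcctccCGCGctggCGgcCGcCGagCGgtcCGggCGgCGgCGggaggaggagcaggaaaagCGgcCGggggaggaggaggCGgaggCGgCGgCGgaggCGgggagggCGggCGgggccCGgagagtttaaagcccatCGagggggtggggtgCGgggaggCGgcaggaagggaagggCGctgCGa
Grb10 downstream start, chr11:12027922-12028221, minus strand: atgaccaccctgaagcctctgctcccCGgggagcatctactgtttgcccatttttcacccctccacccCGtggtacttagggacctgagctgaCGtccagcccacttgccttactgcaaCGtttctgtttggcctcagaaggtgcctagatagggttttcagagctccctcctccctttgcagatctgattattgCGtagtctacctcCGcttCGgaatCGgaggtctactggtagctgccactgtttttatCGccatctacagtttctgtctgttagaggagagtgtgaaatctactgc
The Peg3 window held 13 CpG, the Nap1l5 window 17, and the upstream and downstream Grb10 windows 45 and 9. The Peg3 window overlapped that of Usp29, an imprinted gene read from the other strand, by 263 bases, so both start from 1 shared stretch. Windows were found for 30 of the 38 members. Per gene, the window richest in CpG had a median of 17.5 CpG in the members and 8.0 in all 27025 genes of the table. The 6-letter core TGCCGC, which the imprint-keeping factor ZFP57 binds when its CpG is methylated, was searched on both strands. It was present in 11 of the 30 members (36.7%) and in 13.1% of all genes, and the members' windows also hold more CpG. Among the printed runs it matched the Nap1l5 window 2 times and the upstream Grb10 window 1 time. No methylation was measured in these samples.

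Depth per library was 29471254 to 32264864 reads in control experiment 1 and, in the other 28 libraries, 9470744 to 15098391. All 6 parathyroid markers (Pth, Gcm2, Casr, Chga, Gata3 and Kl) were present in every experiment. Their sum was 258000 to 368000 CPM (read counts scaled to library size, with the TMM correction for composition) in adult libraries and 158000 to 178000 CPM in rat-host libraries. A pair of libraries stood apart by fibroblast genes. The summed level of Col1a1, Col1a2, Col3a1, Dcn and Lum, 5 of 8 listed markers, was 3100 CPM in control experiment 2 replicate 3 and 2270 CPM in mouse-host experiment 2 replicate 4, and the next library, graft replicate 1, had 411 CPM. These 5 were chosen after their values were seen, because Fbln1 and Postn, with means of 311 and 340 CPM, had reads in every library. Pdgfra, at a mean of 3.69 CPM, was also left out. The sum of all 8 was 4050 and 3110 CPM in the pair and at most 1120 CPM in the other libraries. Col1a2 had no read in 20 of the 32 libraries, among them those of the rat host and of control experiment 1. Markers of 4 pluripotency genes summed to at most 1.57 CPM in any library. Summed cycling markers ranged from 16.4 to 1140 CPM in rat-host libraries.

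The members together took 0.126% to 0.196% of the reads of a library. A set of 16 members had a read in every library. Per length, in TPM (reads scaled by transcript length and library size, mean over 8 experiments), Cd81, which encodes a tetraspanin of the cell surface, was the most abundant at 391 TPM. It was followed by Commd1, a regulator of copper handling, at 119 TPM, by the histone chaperone gene Nap1l4 at 64.7 TPM and by the coat protein gene Copg2 at 51.7 TPM. Snrpn, a splicing protein gene of the Prader-Willi region, had 41.6 TPM, and Ube3a, the ubiquitin ligase gene of the same region, had 38 TPM. Blcap at 33.1 TPM, the trafficking gene Trappc9 at 32.4 TPM and the zinc finger gene Peg3 at 28.1 TPM came next. The neighbours Blcap and Trappc9 spanned 18.8 to 52.1 and 24.7 to 38.5 TPM over experiments, so their order is within the spread.

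The opposite end of the list was empty. No read fell on Dlk1, Rtl1 and Dio3, the protein-coding genes of the imprinted cluster on chromosome 12, or on Peg10, Magel2, Klf14 and Calcr in any of the 32 libraries. The growth-factor exchange gene Rasgrf1 had 2 reads in all, and Ascl2, a placental transcription factor gene, had 15 reads, all in rat-host replicate 4. A floor of 3 reads over the 32 libraries is the limit of what these zeros show, and it covers counting error only. These silent genes were silent in native cells as well as in ESC-derived cells. Peg10 shares its promoter region with Sgce, which was expressed.

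**Figure D1:**
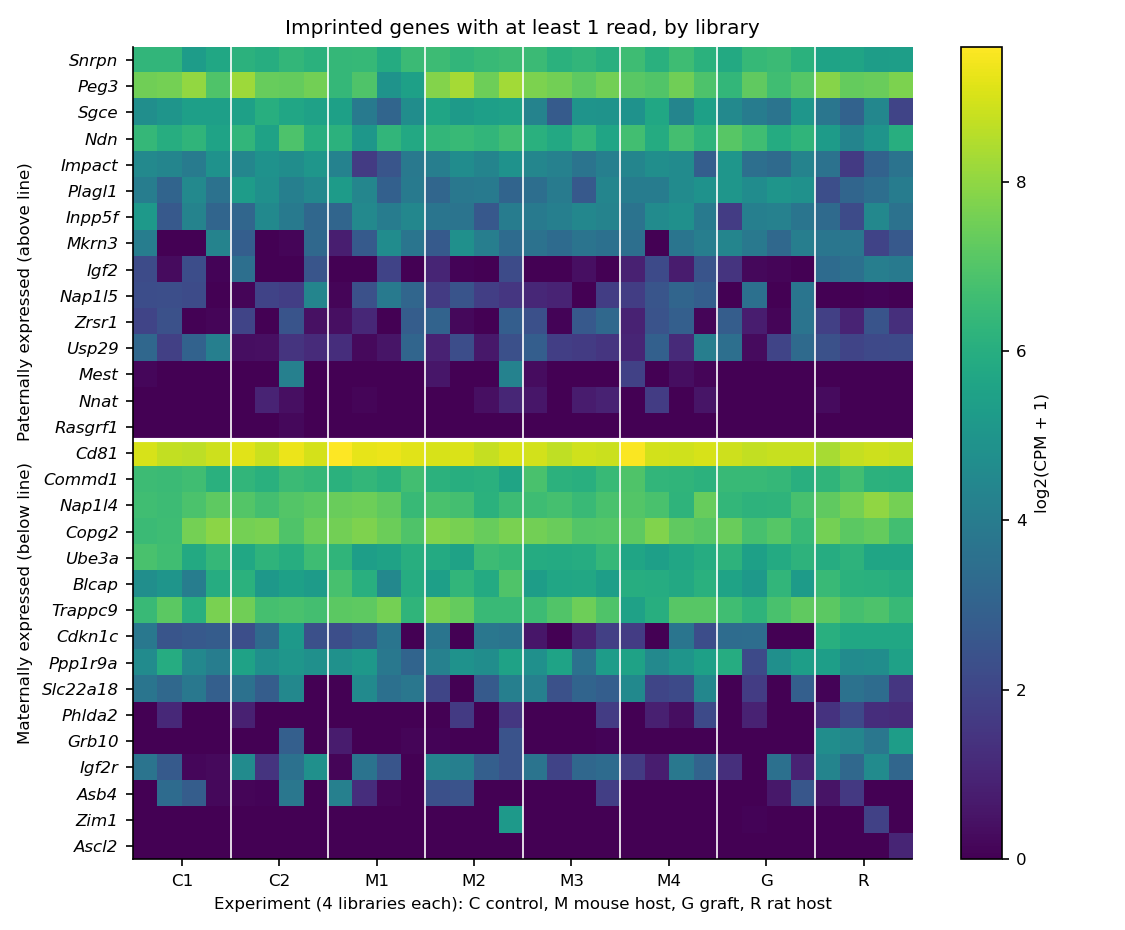
Levels of the 31 imprinted genes with at least 1 read (rows) in 32 libraries (columns), as log2(CPM + 1). The 4 libraries of an experiment stand side by side between white lines, and the thick white line divides paternally from maternally expressed genes. Grb10 and Cdkn1c are bright in all 4 rat-host columns, Nap1l5 is dark there, and most abundant genes show even rows.

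Whether deriving the cells from ESC shifts imprinted genes was tested with 6 ESC-derived against 2 control experiments, on counts summed per experiment. No member passed: 0 of the 30 tested were called at an adjusted p below 0.05 (edgeR quasi-likelihood test, Benjamini-Hochberg over all genes), where 1 of 15698 genes was called (0.00637%). At an unadjusted p below 0.05 there were 2 members of 30, against 6.47% of all genes. DESeq2 called 0 members as well, beside 150 of 15588 genes (0.962%). The members gave 8 positive and 22 negative log2 fold changes with a median of -0.18, beside a median of -0.04 and 46.5% positive over all genes. Leaving out control experiment 2 moved the members' median to 0.03, and 18 of the 30 changed sign under at least 1 alternative, so the majority of negative signs depended on these choices.

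Blcap and Sgce were the 2 members with an unadjusted p below 0.05. Blcap, which encodes a small membrane protein linked to cell death, averaged 33.2 and 45.4 CPM in the control experiments. It averaged 64.0, 74.5, 45.7 and 61.2 CPM in mouse-host experiments 1 to 4, 49.1 CPM in the graft and 72.1 CPM in the rat host. Every ESC-derived mean was thus above both control means, though single libraries overlapped (15.8 to 68.3 CPM in control and 21.4 to 122 CPM in mouse-host libraries). The log2 fold change was 0.64 (SE 0.23, adjusted p = 0.765 by edgeR). The imprinted gene Nnat lies within Blcap and had at most 2.24 CPM in a library.

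Sgce encodes a sarcoglycan of the cell membrane and is read from the paternal copy. It averaged 34.9 and 50.6 CPM in the control experiments. Mouse-host experiments 1 to 4 averaged 22.3, 42.5, 21 and 35.8 CPM, the graft 20.4 CPM and the rat host 10.9 CPM. The control range was entered by mouse-host experiments 2 and 4 but not by the other ESC-derived experiments. The log2 fold change was -0.84 (SE 0.32, adjusted p = 0.765 by edgeR).

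The 2 control experiments gave the scale of differences between native samples. Of the 27 members with enough reads for a test on single libraries, 0 were called between control experiments 1 and 2, where 1 of 13135 genes was called (0.00761%). At an unadjusted p below 0.05 there were 3 members, among 7.15% of all genes. DESeq2 called 1, Grb10, a count given without the share of all genes. Usp29 was the one of the 3 members at an unadjusted p below 0.05 with reads in every library. Control experiment 1 had 8.22, 2.52, 7.12 and 16.4 CPM and control experiment 2 had 0.279, 0.307, 1.72 and 1.26 CPM, without overlap (adjusted p = 0.513 by edgeR).

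Each ESC-derived experiment was then compared with the 8 control libraries, which all 6 comparisons share. Members called at an adjusted p below 0.05 numbered 1 of 27 in mouse-host experiment 1, where 3.43% of all genes were called. There were 0 of 27 in mouse-host experiment 2 (0.0609% of all genes), 0 in experiment 3 (0.0761%), 0 in experiment 4 (0.0685%) and 0 in the graft (1.59%). In the rat host there were 6 of 27 (8.02% of all genes). At an unadjusted p below 0.05 mouse-host experiment 2 had 5 members (9.43% of all genes), experiment 3 had 4 (6.83%), experiment 4 had 3 (6.51%) and the graft 3 (15.3%). DESeq2 called 1, 0, 0 and 1 members there in the same order, Grb10 each time, and these counts are given without the share of all genes. A gene was counted as doubled or halved when it was called, differed by 2-fold in mean CPM and did not overlap the control libraries, and as off when it was halved and 10-fold or more below control. Among members and experiments this gave 1 doubled gene, Grb10 in the rat host (1.71% of all genes were doubled there). It gave 2 halved genes, Peg3 in mouse-host experiment 1 (0.769%) and Sgce in the rat host (1.91%). None was off, where all genes gave 110 such cases over the 6 experiments, 66 of them in the rat host (0.502%).

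Peg3 was the 1 member that set a mouse-host experiment apart. It encodes a large zinc finger protein, is read from the paternal copy and is known for roles in cell survival and maternal behaviour. Mouse-host experiment 1 had 83.1, 121, 29.4 and 42.3 CPM. Control experiment 1 had 181, 189, 261 and 121 CPM, and control experiment 2 had 293, 163, 158 and 187 CPM. The highest library of mouse-host experiment 1 and the lowest control library met at 121 CPM, and the other 3 libraries of that experiment lay below every control library. The experiment mean was 68.9 CPM against 194 CPM in control cells, a log2 fold change of -1.49 (SE 0.28, adjusted p = 0.00181 by edgeR). The other mouse-host experiments averaged 256, 181 and 142 CPM, the graft 115 CPM and the rat host 191 CPM, and none of these was called for Peg3. Graft libraries reached down to 80.6 CPM, so low Peg3 was not found in mouse-host experiment 1 alone.

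Among the 4 mouse-host experiments, Peg3 was likewise the only member called, 1 of 27 beside 1.87% of all genes (F-test, adjusted p = 0.0042 by edgeR). DESeq2 called 2, adding Cd81, a count given without the share of all genes. Usp29, which shares the promoter window with Peg3, had 1.41, 0.197, 0.452 and 7.73 CPM in mouse-host experiment 1. Control libraries ranged from 0.279 to 16.4 CPM, so the library at 0.197 CPM fell below that range and the others lay within it. Cd81 was on the high side in that experiment, with 770, 600, 629 and 576 CPM against 399 to 638 CPM in control libraries (log2 fold change 0.39, SE 0.12, adjusted p = 0.0611). It was called when any 1 of 8 single libraries was left out or when the fibroblast-rich libraries were.

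Transcript length moved with the Peg3 result. The reads of Peg3 came from transcripts of 7230 bases on average, among the longest 10% of tested genes (5411 bases or more). In mouse-host experiment 1 these longest 10% had a median log2 fold change of -0.56 against control, and the shortest 10% had -0.01. Genes called lower there had a median length of 3809 bases and genes called higher 1877 bases. In the other mouse-host experiments the median of the longest 10% was 0.16, 0.03 and 0.00. Of the longest 10%, 19.9% had a lower log2 fold change than Peg3 in mouse-host experiment 1, and 4.64% were called lower, against 1.75% of all genes. The part of length in the Peg3 value was not tested.

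**Figure D2:**
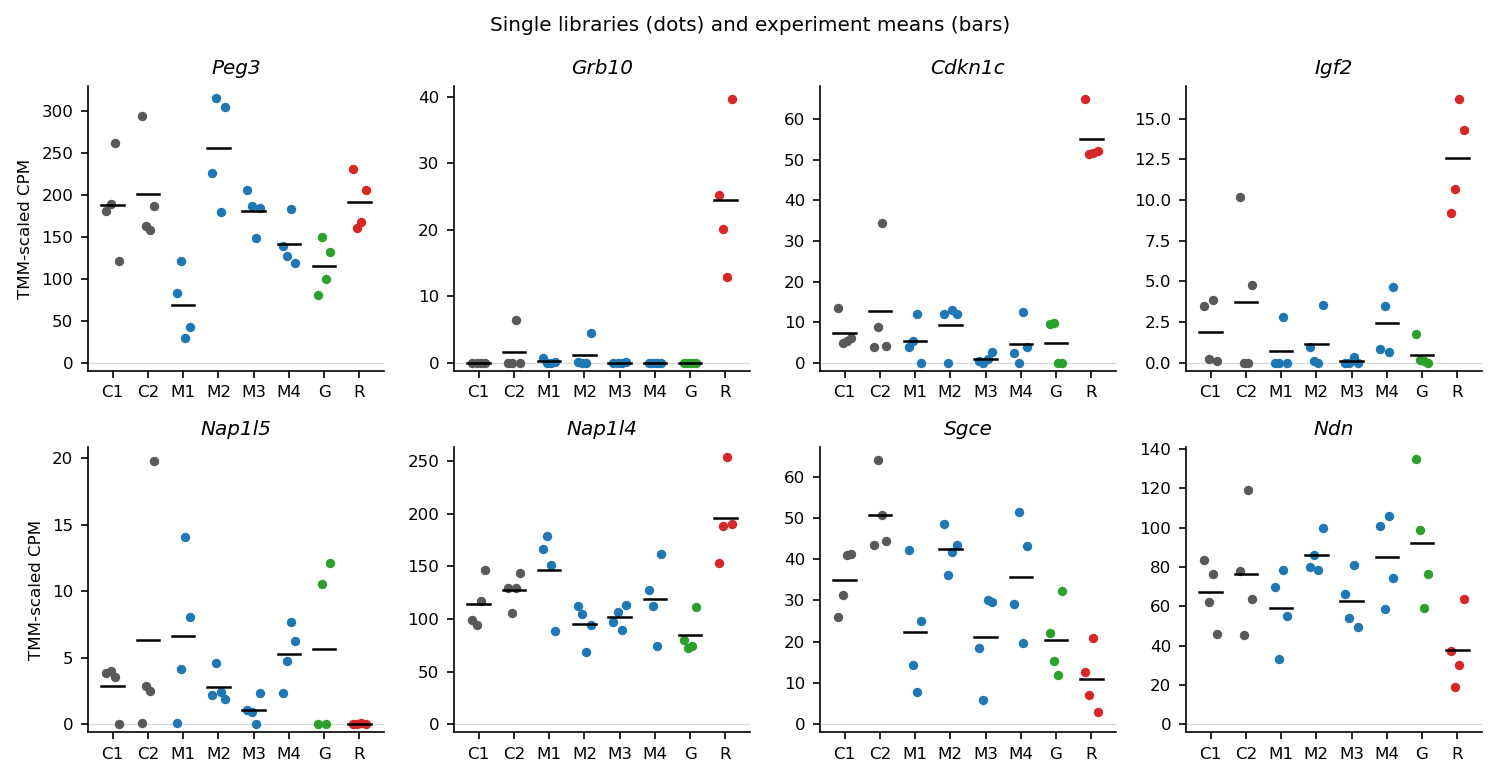
TMM-scaled CPM of 8 imprinted genes in single libraries (dots) with experiment means (bars), for control (C), mouse-host (M), graft (G) and rat-host (R) experiments. Peg3 is lowest in M1 at a mean of 68.9 CPM, Grb10 and Cdkn1c are high in all 4 rat-host libraries, and Nap1l5 is at or near 0 in the rat host.

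The rat-host cells had the most members called against control, some higher and some lower. In the comparison of the rat-host experiment with the 7 adult experiments on summed counts, 0 of 30 members were called, beside 172 of 15698 genes (1.1%). At an unadjusted p below 0.05 there were 8 of 30 members, beside 14.3% of all genes: Grb10, Cdkn1c, Igf2 and Nap1l4 were higher, and Nap1l5, Sgce, Ndn and Snrpn were lower. With single libraries treated as independent the same 8 were called, of 27, beside 11.6% of all genes, and DESeq2 on the sums called 6 of 28, beside 6.77% of all genes. These fits share 1 rat-host experiment, which is assumed to vary as the other arms do. A lower level can reflect fewer cells of a kind in a pool or less RNA per cell, and the libraries cannot tell these apart.

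Grb10 encodes an adaptor that damps insulin and growth factor signalling and is read from the maternal copy in most tissues. The rat-host libraries had 25.2, 20.1, 12.8 and 39.6 CPM. Of the 28 adult libraries, 22 had no Grb10 read, and the highest were 6.47 CPM in control experiment 2 replicate 3 and 4.45 CPM in mouse-host experiment 2 replicate 4, the 2 fibroblast-rich libraries. All 4 rat-host libraries thus lay above every adult library, which held for 132 of 13135 genes (1%) with at least a 2-fold difference. The rat-host experiment counted 1391 reads, while control experiment 1, mouse-host experiment 4 and the graft had 0 and mouse-host experiment 3 had 1. Against a floor of 3 reads over a group, the level was at least 997-fold higher than in control experiment 1, at least 400-fold higher than in the graft and at least 363-fold higher than in mouse-host experiment 4. Against the control libraries Grb10 was called higher (24.4 against 0.808 CPM, adjusted p = 0.0104 by edgeR). Grb10 passed the expression filter only through the rat-host libraries, so both this call and its place above every adult library rest on the group in which it was high. A single protein-coding transcript took 81.6% of its reads in the rat host.

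Cdkn1c encodes an inhibitor of cyclin-dependent kinases that holds cells out of division, and it is read from the maternal copy. The rat-host libraries had 65.0, 51.4, 51.7 and 52.1 CPM, an even and high level. The next library was the fibroblast-rich control experiment 2 replicate 3 at 34.5 CPM, and the other adult libraries had at most 13.4 CPM, among them 6 with no read. Like Grb10, Cdkn1c was in this way higher in all rat-host libraries than in any other library. The means were 55.1 CPM in the rat host and 6.45 ± 3.81 CPM in adult experiments (SD, n = 7 experiments). The log2 fold change was 3.21 (SE 0.70, adjusted p = 0.0839 by edgeR), and against control libraries alone it was 2.50 (SE 1.21, adjusted p = 0.240). Mouse-host experiment 3 was at the low end with 0.492, 0.00, 0.887 and 2.53 CPM, below 3.91 CPM, the lowest control library (adjusted p = 0.695).

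Igf2, the fetal growth factor gene read from the paternal copy, had 9.19, 10.7, 16.2 and 14.3 CPM in the rat host. Adult libraries ranged from 0 to 10.2 CPM, the top being control experiment 2 replicate 1, so a narrow overlap remained. The log2 fold change against adult cells was 3.38 (SE 1.12, adjusted p = 0.222 by edgeR). Its receptor gene Igf2r, read from the maternal copy and known for clearing the factor, averaged 14.7 CPM in the rat host and 7.58 ± 4.62 CPM in adult experiments (SD, n = 7), and control experiment 2, at 15.8 CPM, was higher than the rat host.

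Nap1l4 lies near Cdkn1c and Phlda2 on chromosome 7. Its rat-host libraries had 153, 189, 254 and 190 CPM, and adult libraries had 69.1 to 179 CPM, so 1 rat-host library fell within the adult range. It was called higher than in the control libraries (log2 fold change 0.70, SE 0.19, adjusted p = 0.0176 by edgeR), a call lost without rat-host replicate 3 (0.54, adjusted p = 0.139). Against all adult experiments the value was 0.86 (SE 0.22, adjusted p = 0.132). Phlda2, a placental growth regulator gene of the same cluster, had 1.28 to 3.39 CPM in all 4 rat-host libraries. It was above 0 in 9 of 28 adult libraries, which reached 3.44 CPM. Cd81, from the same chromosome arm, averaged 413 CPM in the rat host and 511 ± 73.8 CPM in adult experiments (SD, n = 7), and Slc22a18, a transporter gene of the cluster, 5.62 and 8.69 ± 3.5 CPM.

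Nap1l5, a gene without introns read from the paternal copy, was the closest to being switched off. The rat-host experiment had 1 read in all, with 0.00, 0.00, 0.0734 and 0.00 CPM. Adult experiments averaged 1.08 to 6.60 CPM, yet 4 of the 28 adult libraries had no read. The ratio of adult to rat-host level was 231 with an exact 95% counting interval of 41.4 to 9120. Against control libraries it was called lower (adjusted p = 0.0276 by edgeR), while overlap at 0 with control experiment 1 replicate 4 kept it from counting as off; without that library it met the rule. The call was lost without rat-host replicate 1, 2 or 4 (adjusted p = 0.0867, 0.0875 and 0.0918 by edgeR) or without control experiment 2 replicate 4 (0.0535). The share of genes with at most 3 reads in the rat host but 1 CPM or more elsewhere was 236 of 12085 (1.95%), against 1 of 24 members.

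Sgce was called lower in the rat host than in control cells. Its libraries had 12.6, 7.07, 20.9 and 2.9 CPM, all below the control range of 26.0 to 64.0 CPM (log2 fold change -1.95, SE 0.49, adjusted p = 0.00981 by edgeR). The call was lost, at an adjusted p of 0.05, without rat-host replicate 2. Counted per length in TPM, the rat-host libraries overlapped the control libraries. Other ESC-derived libraries reached down to 5.77 CPM, so against all adult cells the groups overlapped.

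Ndn and Snrpn, 2 paternally expressed genes of the Prader-Willi region on chromosome 7, were both lower. Ndn, which encodes a growth-restraining protein of postmitotic neurons, had 37.4, 19.0, 30.0 and 63.8 CPM in the rat host against 33.1 to 135 CPM in adult libraries. Snrpn, not among the genes named by rule and added after its values were seen, had 46.2, 48.0, 39.3 and 40.7 CPM. A single adult library, control experiment 1 replicate 3 at 38.6 CPM, was as low, and every other adult library had 51.1 CPM or more. Against control the log2 fold change was -0.93 (SE 0.30, adjusted p = 0.0487) for Ndn and -0.60 (SE 0.19, adjusted p = 0.0476) for Snrpn by edgeR, and both calls were lost under 27 of 38 alternatives. Ube3a, the maternally expressed gene of the region in neurons, averaged 57.6 CPM in the rat host and 65.7 ± 11.9 CPM in adult experiments (SD, n = 7). Mkrn3, another paternally expressed gene there, averaged 8.42 and 10.3 ± 3.69 CPM.

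**Figure D3:**
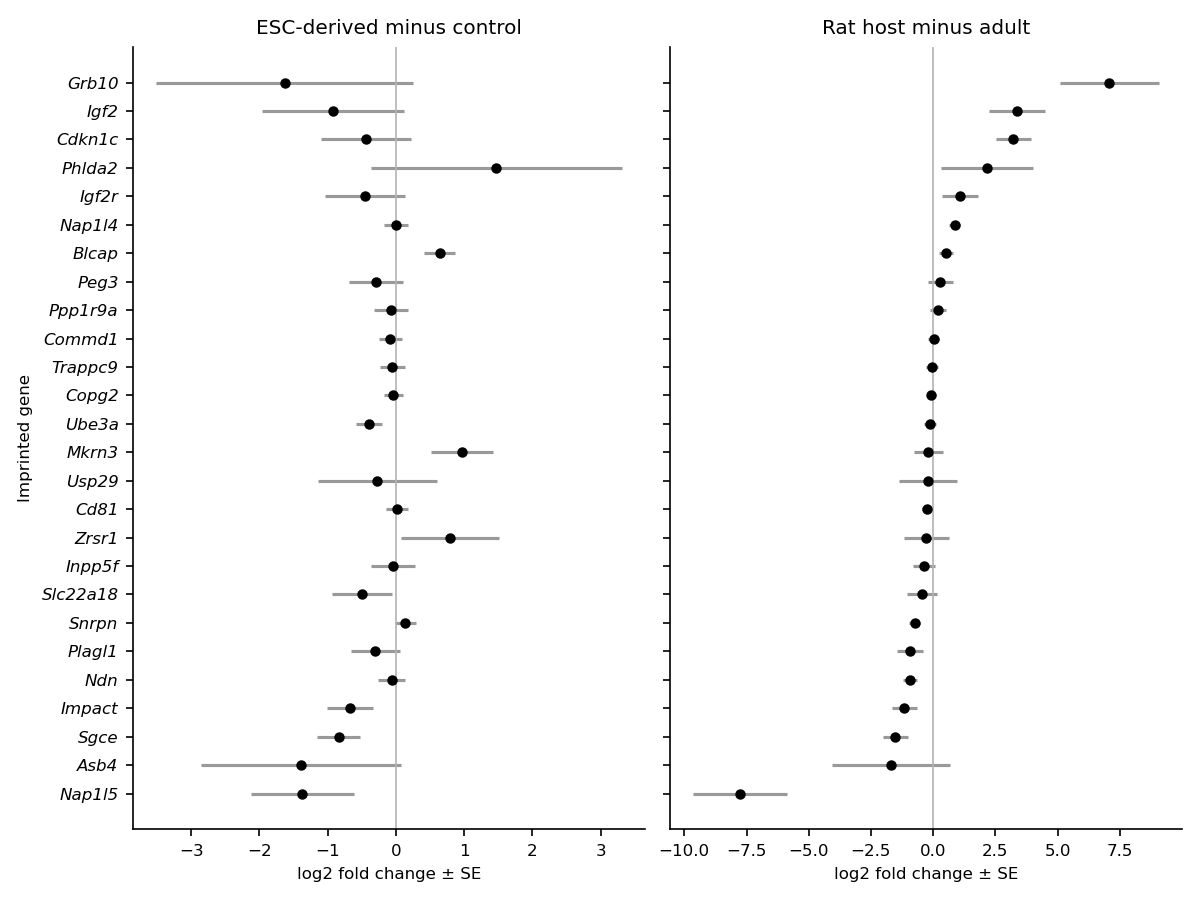
Log2 fold changes (dots) with standard errors (lines) of 26 imprinted genes from counts summed per experiment, for ESC-derived minus control (left) and rat host minus adult (right, with a wider axis), ordered by the right panel. Left, most genes lie within 1 log2 unit of 0. Right, Grb10, Igf2 and Cdkn1c lie above 3 and Nap1l5 below -7; Ascl2, Mest, Nnat and Zim1 are not drawn because their standard errors reached 3 or more.

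By parental origin, the rat host against adult gave 2 positive and 12 negative log2 fold changes among the 14 tested paternally expressed members (median -0.84). Maternally expressed members gave 10 positive and 6 negative of 16 (median 0.37). Over all genes 47.8% were positive with a median of -0.04. The 2 positive paternally expressed genes were Igf2 and Peg3 (0.29, SE 0.51). No test was run between the classes. The classes are general knowledge, and many of these genes are imprinted only in some tissues or isoforms, so the parental copy read in these cells is not known. The paternal counts include Mest and Nnat, whose standard errors were 14313.26 and 83.79, so their signs carry little weight. Among maternal genes, Ascl2 was positive on 15 reads, all in rat-host replicate 4. By less than their SE, Zim1, Commd1 and Ppp1r9a were positive and Asb4, Copg2, Slc22a18, Trappc9 and Ube3a negative. Against control cells on single libraries, the paternal class gave 5 positive and 8 negative of 13 and the maternal class 7 and 7 of 14.

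Several members were off or on by single pools rather than by experiment. Mest, a paternally expressed hydrolase gene of mesodermal tissue, and Zim1, a maternally expressed zinc finger gene beside Peg3, were looked at after their values were seen. Mest had 17.1 CPM in control experiment 2 replicate 3 and 18.3 CPM in mouse-host experiment 2 replicate 4, and at most 2.65 CPM elsewhere, with 0 in 24 of 32 libraries. Zim1 had 34.1 CPM in mouse-host experiment 2 replicate 4, 2.64 CPM in rat-host replicate 3, 0.0725 CPM in graft replicate 2 and 0 in the other libraries. The 2 high Mest libraries are the 2 with most fibroblast RNA, which also had the highest adult Grb10, and only 1 of them had Zim1. Control experiment 2 replicate 3 also had the highest macrophage marker sum (66.3 CPM). Mouse-host experiment 2 replicate 4 had the highest pericyte marker sum (33.1 CPM). The rat-host libraries, high in Grb10 and Cdkn1c, had 0.0734 to 1.17 CPM of the 5 fibroblast genes and 255 to 411 CPM of all 8. The part of fibroblast, macrophage or pericyte RNA in the Mest, Zim1, Grb10 and Cdkn1c values was not tested. Leaving out the 2 fibroblast-rich libraries, after the values were seen, moved the Grb10 log2 fold change in the rat host against adult cells from 7.07 to 10.83. They held the highest adult Grb10, so the move follows from the choice and is no separate support.

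**Figure D4:**
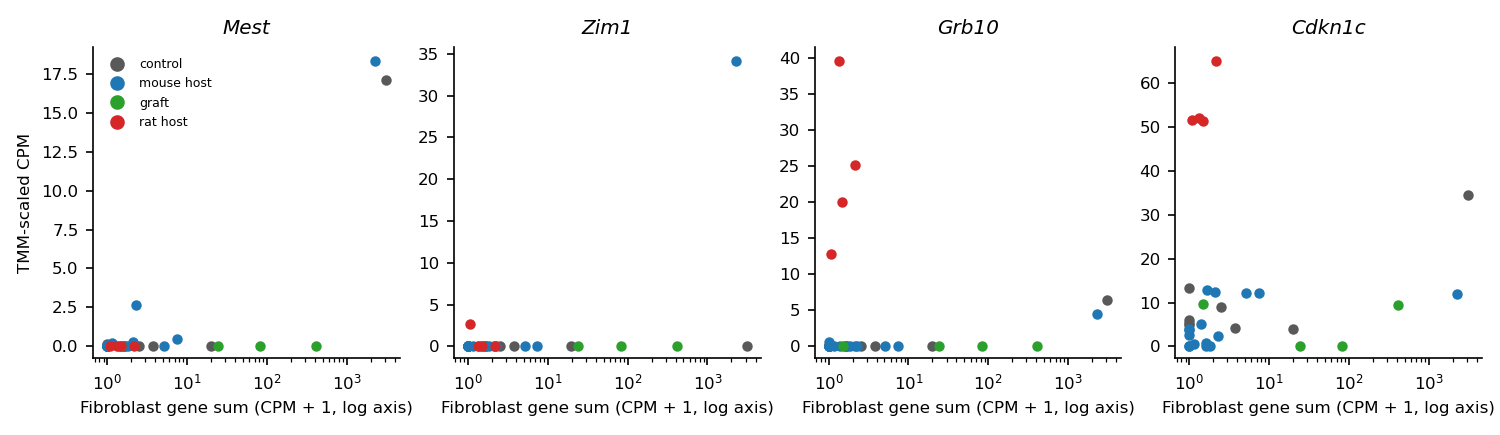
CPM of Mest, Zim1, Grb10 and Cdkn1c (vertical axes) against the summed CPM of Col1a1, Col1a2, Col3a1, Dcn and Lum plus 1 (horizontal log axes), with 1 dot per library coloured by arm. The 2 libraries at the right, at 3100 and 2270 CPM, hold the highest Mest values, and the 4 rat-host libraries hold the highest Grb10 and Cdkn1c near the left edge.

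Asb4, a maternally expressed gene for a substrate receptor of ubiquitin ligases, had no read in any library of mouse-host experiment 4. Control libraries had 0.00, 9.26, 6.15 and 0.139 CPM in experiment 1 and 0.093, 0.0767, 13 and 0.00 CPM in experiment 2. The experiment was at least 56.6-fold lower than control by the floor of 3 reads, but 16 of all 32 libraries had no Asb4 read, and the difference was not called (adjusted p = 0.640 by edgeR). Such dropout was usual at this level. Of the genes averaging 1 to 5 CPM, 89.0% had at least 1 library at 0, as did 5 of the 6 members of that level. Of those averaging 50 to 1000 CPM, 0.4% did, and 0 of 10 members did.

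Of the remaining members, none was called in any comparison by edgeR with all libraries. Impact, a regulator of the stress kinase GCN2, averaged 8.01 CPM in the rat host, 9.72 CPM in mouse-host experiment 1 and 16.6 to 26.3 CPM in the other experiments, with a log2 fold change of -1.16 in the rat host against adult cells (SE 0.51, adjusted p = 0.352 by edgeR). Against control it was -1.56 (SE 0.53, adjusted p = 0.0701); DESeq2 called it there (-1.53, adjusted p = 0.0136), as did edgeR without mouse-host experiment 1 replicate 2 (-1.54, adjusted p = 0.0486). Plagl1, a growth-restraining zinc finger gene, averaged 9.19 CPM in the rat host and 18.9 ± 6.79 CPM in adult experiments (SD, n = 7), with mouse-host experiment 2 at 10.7 CPM. Over the 8 experiments Ppp1r9a, a neuronal scaffold gene, averaged 20.6 to 35.2 CPM, the phosphoinositide phosphatase gene Inpp5f 11.2 to 19.2 CPM and the splicing factor retrogene Zrsr1 1.81 to 4.71 CPM. Commd1 averaged 79.1 and 80.3 ± 8.74 CPM, Copg2 148 and 162 ± 22.0 CPM, and Trappc9 114 and 123 ± 15.5 CPM in the rat host and in adult experiments (SD, n = 7). Commd1, Copg2, Mest, Peg3 and Sgce each overlap or adjoin another transcribed gene, and the counting is not stated to use strand, so reads of such partners cannot be told apart.

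Genes that place or keep imprints were listed beside the members. In the rat host against adult, 12 of 21 tested had positive log2 fold changes (47.8% of all genes), and 1 was called (1.1% of all genes). This was Uhrf1, which brings the maintenance methyltransferase to replicated DNA, at 40.9 against 11.4 CPM (log2 fold change 3.5, SE 0.38, adjusted p = 0.0119 by edgeR). That fold change averages log values over the adult experiments and is enlarged by the graft, where Uhrf1 was very low (-10.69 against control, SE 2.92, adjusted p = 0.0555 by edgeR). Against the control libraries, at 15.1 CPM, Uhrf1 in the rat host was not called (1.51, SE 1.42, adjusted p = 0.642). Dnmt3a, a de novo methyltransferase gene, had 62.5 against 21.3 CPM (1.65, SE 0.33, adjusted p = 0.0674), and it was called against control (1.59, SE 0.49, adjusted p = 0.0423). The maintenance enzyme gene Dnmt1 had 73.2 against 38.7 CPM (1.05, SE 0.32, adjusted p = 0.187). Uhrf1 is also high in dividing cells, and summed cycling markers reached 1140 CPM there, against 498 CPM in adult libraries; their part was not tested. In mouse-host experiment 1, 3 of 20 were called lower than control and 0 higher: Atrx (29.6 against 104 CPM), Arid4b (21.7 against 55.7 CPM) and Smchd1 (9.00 against 24.8 CPM). Of all genes 1.75% were called lower there. The reads of these 3 genes came from transcripts of 4628, 3394 and 6698 bases on average, and the lower values of long transcripts in that experiment stand above; the part of length was not tested. In the ESC-derived against control comparison 0 of 21 were called, with 12 positive.

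Further imprinted genes outside the 38 gave 15 positive of 22 in the rat host against adult (47.8% of all genes). Slc38a4, an amino acid transporter gene, was the 1 called (1.1% of all genes), at 97.8 against 23.1 CPM (log2 fold change 2.12, SE 0.28, adjusted p = 0.0221 by edgeR). Of 13 tested partners of Igf2 signalling, 2 were called (1.1% of all genes) and both were higher. Igf2bp3, which binds Igf2 messenger RNA in fetal tissue, had 26.7 against 1.39 CPM (4.48, SE 0.73, adjusted p = 0.0348). Its relative Igf2bp1 had 287 reads in the rat host and 3 in all adult libraries (adjusted p = 0.0368). With so few adult reads, Igf2bp1 passed the expression filter only through the rat host, so its call rests on the group in which it was high. In ESC-derived against control cells 0 of 22 further imprinted genes and 0 of 13 Igf2 partners were called.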

How the data were processed

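RNA of picked parathyroid cells was measured in 32 libraries. Per the submitters' processing notes, Salmon was the quantifier and GRCm39 the genome build. Salmon's version was not given in the sources used here, nor was its transcript set. Expected counts as deposited, per transcript, were summed to 35458 genes through GENCODE M21 identifiers (115685 of 116747 transcripts matched; the other 1062 held 0.49% of reads) and rounded. The deposited TPM values, scaled by the authors' tool for length and depth, served for levels between genes and for 1 alternative on log2(TPM + 1). No molecular identifiers were used, so floors (3 reads) and intervals cover counting error only.

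Counts were tested with edgeR 4.0.16 in R 4.3.3 (quasi-likelihood, TMM, default filter, Benjamini-Hochberg over all genes, adjusted p below 0.05). The 8 experiment sums were fitted with a coefficient per arm, and single libraries with a coefficient per experiment. A fold change from the arm fit is a mean of log values over experiments and can differ in sign from the difference of mean CPM, as for Grb10 in ESC-derived against control cells. Alternatives used DESeq2 1.42.0, limma 3.58.1, other scaling, no filter, other designs and libraries left out. The tests were also run on simulated counts with the same spread for every gene and no variation between experiments. Such counts cannot check the tests between arms. The lowest chi-square per degree of freedom over the 48 library pairs within experiments was 41, so none was a duplicate.

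The 38 members and all lists were chosen with earlier results of these data known. Named genes were up to 20 members: those called between arms, then those doubled, halved, off or standing alone in an experiment, then those with the smallest p among mouse-host experiments. Snrpn, Mest, Zim1, Mkrn3, Igf2r and Slc22a18 were added after their values were seen. Promoters came from RefSeq on GRCm38.p6 (30 of 38 matched); Peg10, Cdkn1c, Trappc9, Nap1l4, Rtl1, Klf14, Sgce and Impact had no entry. Imprinted non-coding RNAs were not analysed here.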

Additional observations from a re-analysis of the deposited data

Results flagged for a closer look

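Within an experiment, a library was marked when its gap to the nearest of the other 3 relative to the experiment's range exceeded Dixon's 95% critical value. This was done for 21 members in 118 groups, each the 4 libraries of an experiment for a member averaging 5 CPM or more there. Chance marks about 1 in 20 groups, and 10 libraries were marked.

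Cdkn1c was marked 4 times. Control experiment 1 replicate 1 had 13.4 CPM against 4.79 to 5.99 CPM in the other 3 libraries, and control experiment 2 replicate 3, which is rich in fibroblast RNA, had 34.5 CPM against 3.91 to 8.89 CPM. Mouse-host experiment 2 replicate 2 had 0.0 CPM against 11.9 to 12.9 CPM. Rat-host replicate 1 had 65.0 CPM against 51.4 to 52.1 CPM.

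Mouse-host experiment 4 replicate 1 was marked for Cd81, at 743 CPM against 479 to 515 CPM, and for Commd1, at 122 CPM against 71.3 to 77.9 CPM. For Cd81, mouse-host experiment 2 replicate 3 was low at 427 CPM against 514 to 524 CPM. Ube3a had 82.1 CPM in mouse-host experiment 3 replicate 4 against 57.1 to 59.8 CPM. Trappc9 had 183 CPM in control experiment 2 replicate 1 against 105 to 113 CPM. Nap1l5 had 19.8 CPM in control experiment 2 replicate 4 against 0.093 to 2.84 CPM, and without that library Nap1l5 was not called in the rat host against control.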

How the results depend on the processing

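ESC-derived against control gave 0 members under all 49 alternatives. Rat host against adult gave 0 in the arm fit (1.1% of all genes) and 8 with single libraries as independent (11.6%). The replicate block gave 9 (10.9%), DESeq2 6 (6.77%) and limma-trend on TPM 5, all higher (5.52%). It gave 1 without an expression filter (1.41%). Without the fibroblast-rich libraries, an alternative chosen after seeing the data, it gave 1 (1.07%). With an experiment or library left out it gave 0 to 1. With an experiment left out, 0.148% to 1.85% of all genes were called. On TPM the median of all genes moved from -0.04 to 0.25, and 90.9% of calls were higher against 53.5% in the arm fit; upper-quartile scaling moved the median to -0.15 with 43.6% of calls higher, and DESeq2 gave 36.9%. In this comparison 9 of 30 members changed sign under an alternative, none of them called. DESeq2 called 1 member between controls, 2 among mouse-host experiments, 3 in mouse-host experiment 1, 1 in experiment 2 and 1 in the graft. Mouse-host experiment 1 gave 2 without the fibroblast-rich libraries, and 1 to 2 with a library left out. Rat host against control gave 2 to 7: 2 without rat-host replicate 2, and 3 without rat-host replicate 1, rat-host replicate 3 or control experiment 2 replicate 4. Member counts with 1 library left out are given without the share of all genes. The same holds for DESeq2 and the left-out fibroblast-rich libraries in single-library comparisons. These member counts show how calls moved and say nothing about the members as a group. Peg3 in mouse-host experiment 1 was called under all 38 alternatives (log2 fold change -1.90 to -1.24, highest adjusted p 0.0171), and so was Grb10 in the rat host against control (highest adjusted p 0.0285). Doubled members numbered 2 with 1.5-fold thresholds and 2 on TPM, adding Nap1l4, and 1 to 2 with a library left out (Blcap without control experiment 2 replicate 1). Halved members numbered 1 on TPM, without Sgce, and 1 to 3 with a library left out (1 without rat-host replicate 2). Members off numbered 0 to 1 with a library left out, and members standing alone and higher 4 on TPM, adding Igf2 and Nap1l4, and 2 to 3 with a library left out. Replicate numbers do not pair the samples: deviations of same-numbered libraries correlated at a mean of -0.006 (112 pairs) and others at 0.002 (336 pairs). Depth limits genes under about 15 CPM, where zeros are common.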

Other observations

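Qpct, a glutaminyl cyclase gene reported as imprinted in placenta, was called lower than control in mouse-host experiment 1 (log2 fold change -0.70, SE 0.12, adjusted p = 0.000838 by edgeR) and in the rat host (-1.15, SE 0.13, adjusted p = 1.94e-07), and also in the graft (-0.53, SE 0.12, adjusted p = 0.0206). It averaged 804 CPM in control cells, 494 CPM in mouse-host experiment 1 and 362 CPM in the rat host. H13, a signal peptide peptidase gene, was called higher than control in the graft (0.67, SE 0.17, adjusted p = 0.0407) and lower in mouse-host experiment 4 (-1.09, SE 0.18, adjusted p = 0.00946). These comparisons use the same control libraries. Begain, next to the silent Dlk1 cluster, had 110 reads in the rat host and 14 in all adult libraries (adjusted p = 0.207 against adult). It had no read in control cells, against which the rat host was called higher (adjusted p = 0.0194 by edgeR). Begain passed the expression filter only through the rat-host libraries, so this call rests on the group in which it was high.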
